A study of Mus musculus with 13 samples.

Results

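The hedgehog genes described here are 9 rows of the study's table of gene expression, found by gene symbol: the ligands Shh and Ihh, the receptor Ptch1, the co-receptor Gas1, the decoy receptor Hhip, the membrane transducer Smo and the transcription factors Gli1, Gli2 and Gli3. All 9 were present among 24972 genes, and all 9 were among the 17449 genes that the authors tested. Polyadenylated RNA of mouse tongue epithelium was sequenced from 6 H3K36M samples, which carried the transgene Krt14-Cre and the Cre-inducible allele LSL-H3K36M, and from 7 control samples, which carried LSL-H3K36M without Cre. H3K36M is a histone H3 whose lysine at position 36 is replaced by methionine, and it blocks methylation of that lysine. Krt14-Cre acts in keratin-14 expressing cells, that is in the basal layer of stratified epithelia, from which the upper layers descend. Cre was present in every H3K36M sample and in no control sample, so an effect of Cre and one of the mutant histone cannot be told apart. The labels give neither age nor sex and do not say whether each sample is 1 animal.

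Hedgehog ligands are secreted proteins that bind Ptch1 and so release Smo from its restraint. Smo then acts at the primary cilium, where it shifts Gli2 and Gli3 from repressing to activating forms. Gli3 is known mainly as a repressor, Gli2 mainly as an activator, and Gli1 is an activator that is itself a target of the pathway. Ptch1 and Hhip are targets too, and both hold the ligand back. In the tongue, Shh comes from cells of the taste buds, and the cells that respond to it lie in the epithelium around them and in the connective tissue below.

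Gli3 fell in H3K36M tongue epithelium to 51.5% of its level in control, and it was the 1 of the 9 genes to pass the threshold. Gli1 had the highest fold of the 9, 4.96, with the widest spread of the 7 well-read genes, and did not pass. Hhip stood at 53.7% of its control level and did not pass. Ptch1 and Gas1 had nearly the same level in both groups, and the ligands were close to the limit of detection in both. In the authors' deposited table the adjusted p was below 0.05 for 11.1% of the 9 genes, against 3.43% of all genes tested (DESeq2 by the authors), with 1.59% of all genes tested passing as lower and 1.85% as higher. By the authors' deposited table, Gli1, Gli3 and Hhip, 3 of the 9 genes, had an unadjusted p below 0.05, or 33.3%, against 9.82% of all genes tested. The median log2 fold change was 0.02 over the 9 genes and 0.07 over all genes tested, computed from the authors' deposited table.

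The stretches of genome before the RefSeq starts of Gli3, Gli2 and Hhip are shown because Gli3 is the gene that passed, Gli2 is its relative that did not, and Hhip is the target with the lowest p of the receptor genes. Each is the 250 bases before the start of the RefSeq gene on GRCm38, written 5′ to 3′ on the strand of the gene. GENCODE M21, from which the gene positions below are taken, starts Gli3 earlier than RefSeq does, so the Gli3 window lies inside the gene as GENCODE places it. The windows of Gli2 and Hhip lie before their genes in both. Capitals mark the 7-letter core of the GLI binding motif, ACCACCC or, on the other strand, GGGTGGT.
Gli3, chr13:15463473-15463722, plus strand: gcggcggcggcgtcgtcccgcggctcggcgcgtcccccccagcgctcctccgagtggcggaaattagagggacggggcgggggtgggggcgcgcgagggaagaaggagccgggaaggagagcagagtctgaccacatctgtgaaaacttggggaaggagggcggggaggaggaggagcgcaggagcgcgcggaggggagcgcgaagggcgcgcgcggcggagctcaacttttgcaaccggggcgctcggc
Gli2, chr1:119053620-119053869, minus strand: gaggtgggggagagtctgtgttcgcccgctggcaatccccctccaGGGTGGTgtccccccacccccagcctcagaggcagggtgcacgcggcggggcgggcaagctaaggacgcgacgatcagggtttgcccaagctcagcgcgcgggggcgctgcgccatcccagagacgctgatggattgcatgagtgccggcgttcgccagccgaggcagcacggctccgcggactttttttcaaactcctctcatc
Hhip, chr8:80058009-80058258, minus strand: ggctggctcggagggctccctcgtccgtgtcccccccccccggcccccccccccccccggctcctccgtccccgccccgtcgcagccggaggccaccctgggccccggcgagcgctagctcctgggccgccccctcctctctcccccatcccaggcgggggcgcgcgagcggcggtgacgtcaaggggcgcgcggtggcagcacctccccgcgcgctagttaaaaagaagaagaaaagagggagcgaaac
Of the 9 genes, 7 had such a window, and that of Ptch1, like that of Gli3, lies inside the gene as GENCODE places it. The core was found in 1 of these 7, Gli2, starting 205 bases before the start of the gene, and in 3.92% of all 32851 windows of this length. The full 9-letter motif GACCACCCA, searched on both strands and containing the core, was in none of the 7 and in 0.225% of all windows. A match describes letters only, and its lack says only that those letters are not in these windows. The Gli3 window held 34 CG pairs and 72.8% G or C, the Gli2 window 22 and 67.2%, and the Hhip window 28 and 76%, against medians of 6 CG pairs and 52.4% over all windows.

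The table gives 1 fitted level for each group, in normalised counts (reads scaled to a common library depth), and no value of a single sample. Libraries totalled 15769751 normalised counts on average. The spread between samples is seen only through the standard error (SE) of the fold change. The intervals of levels below are 95% intervals that follow from that SE. A gene passed where its adjusted p was below 0.05, which took a log2 fold change of at least 3.14 times its SE.

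**Figure D1:**
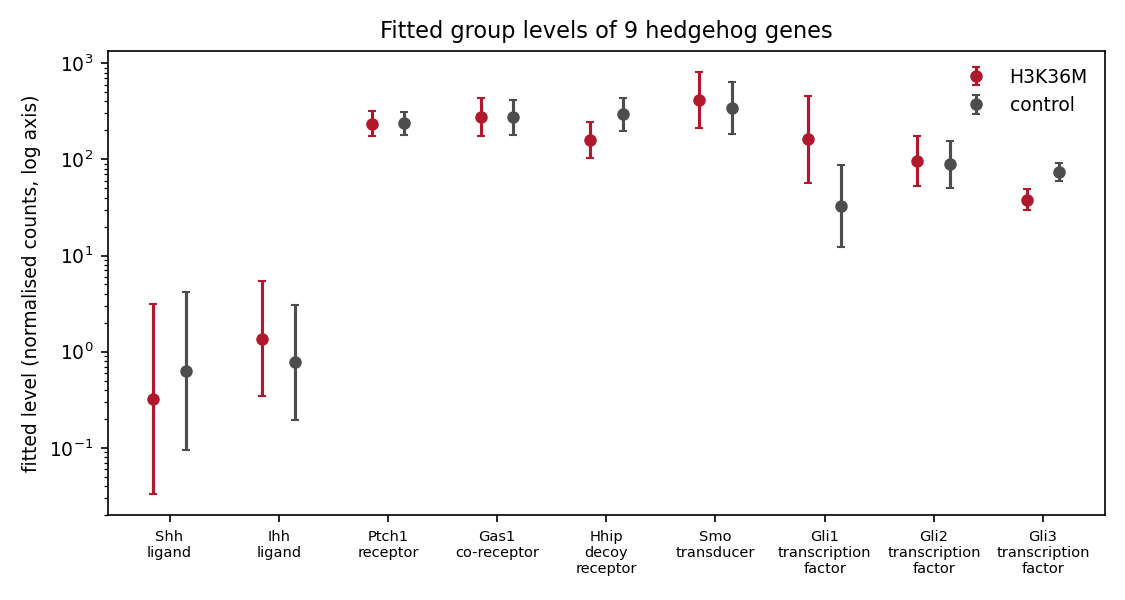
Fitted levels of the 9 genes in normalised counts on a log axis, H3K36M in red and control in grey, with 95% intervals that follow from the SE. The intervals of Gli3 do not overlap (29.7 to 48.7 in H3K36M, 59.6 to 91.2 in control), those of the other 8 genes do, and both ligands lie far below the rest.

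The ligand genes were barely read. Shh, on chromosome 5 (28456815 to 28467256, GRCm38, minus strand), had a level of 0.322 normalised counts in H3K36M and 0.626 in control in the authors' deposited table. That corresponds to about 2 reads over the 6 H3K36M libraries and about 4 over the 7 control libraries, a ratio of 0.559 at equal depth with a counting interval (exact, 95%) of 0.0506 to 3.90. Ihh, a ligand of cartilage and of sebaceous glands on chromosome 1 (74945315 to 74951672, minus strand), had 1.36 normalised counts in H3K36M and 0.773 in control in the authors' deposited table, or about 9 and 6 reads. A change of either ligand was not detectable at this depth: by the SEs they were given, Shh would have had to differ by 114-fold and Ihh by 22.7-fold to pass.

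By the authors' deposited table Ptch1, the receptor, on chromosome 13 (63508328 to 63573598, minus strand), had 235.0 normalised counts in H3K36M (interval 175 to 316) and 238 in control (interval 181 to 314). The log2 fold change was −0.02 (SE 0.30), with an interval of the fold from 0.658 to 1.48. Ptch1 would have passed at a 1.91-fold difference, a smaller one than for any other of the 9 genes but Gli3. Gas1, a membrane-anchored protein that helps the receptor bind its ligand, on chromosome 13 (60174405 to 60177365, minus strand), had 278 normalised counts in H3K36M (interval 177 to 437) and 274 in control (interval 180.1 to 416). The authors' deposited table put its log2 fold change at 0.02 (SE 0.45), with a fold between 0.548 and 1.88. For both genes the levels of the groups lay well inside each other's intervals. These intervals do not show that the groups were equal.

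Hhip, which binds the ligands at the cell surface and takes them away from Ptch1, lies on chromosome 8 (79965851 to 80058006, minus strand). By the authors' deposited table it had 158 normalised counts in H3K36M (interval 102 to 244) and 294 in control (interval 197 to 440). The log2 fold change was −0.90 (SE 0.44, interval −1.75 to −0.04, unadjusted p = 0.0396, adjusted p = 0.451, DESeq2 by the authors). Its size was close to that of Gli3, and its SE was wider. Hhip would have needed a difference of 1.37 on the log2 scale to pass. Smo, the transducer, on chromosome 6 (29735503 to 29761365, plus strand), had by the authors' deposited table a level of 417 normalised counts in H3K36M (interval 214 to 812) and 342 in control (interval 184 to 634). Its log2 fold change was 0.29 (SE 0.67), with an interval of the fold from 0.491 to 3.03.

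The 3 GLI genes differed in size and in error. Gli3, on chromosome 13 (15463235 to 15730026, plus strand), had 38.0 normalised counts in H3K36M and 73.8 in control in the authors' deposited table. The log2 fold change was −0.96 (SE 0.24, interval −1.43 to −0.48, adjusted p = 0.00348, DESeq2 by the authors), a fold between 0.372 and 0.715. About 243 reads in H3K36M and 526 in control stood behind these levels. Gli2, on chromosome 1 (118834132 to 119053619, minus strand), had 96.9 normalised counts in H3K36M (interval 53.2 to 177) and 88.8 in control (interval 50.9 to 155), and its log2 fold change was 0.13 (SE 0.60) per the authors' deposited table. Its interval of the fold, 0.481 to 2.47, also covers the fold of Gli3.

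Gli1, the target of the pathway most often used to read it, on chromosome 10 (127329882 to 127341974, minus strand), had by the authors' deposited table a level of 162 normalised counts in H3K36M (interval 57.0 to 461) and 32.6 in control (interval 12.3 to 86.5). The log2 fold change was 2.31 (SE 1.05, interval 0.25 to 4.37, unadjusted p = 0.0280, adjusted p = 0.369, DESeq2 by the authors). It would have had to reach 3.30 to pass. Of the 3 known targets among the 9 genes, Gli1 was thus higher, Hhip lower and Ptch1 almost level by their point values, and none of them passed. Whether 2 of the 9 genes differ from each other in fold change was not tested, since that needs values of single samples.

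Arhgap9, a gene of blood cells, lies on the strand opposite to Gli1 and shares 62 bases of exon with it. It was looked up for that overlap after the value of Gli1 was known. It had 92.5 normalised counts in H3K36M and 12.6 in control in the authors' deposited table and rose by 2.88 on the log2 scale (SE 0.52, adjusted p = 5.74e-06, DESeq2 by the authors). The library kit keeps strand, but whether the counting used it is not given in the sources used here, and the part of Arhgap9 reads in the Gli1 value was not tested. Noncoding genes on opposite strands also share exon bases with Shh (446 and 361 bases), Gas1 (589 bases), Hhip (175 bases), Gli1 (265 bases) and Gli3 (188 bases).

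**Figure D2:**
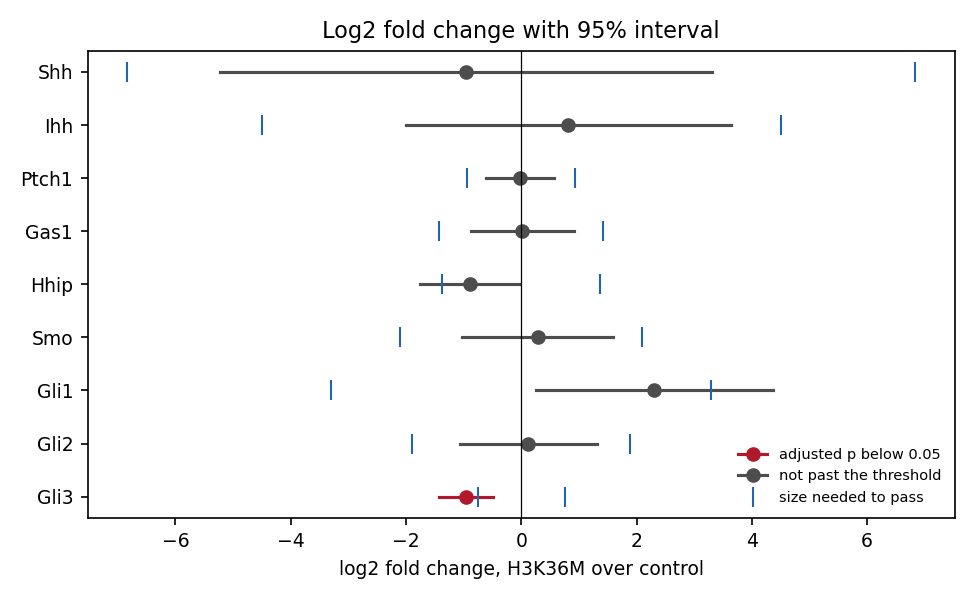
Log2 fold change of each gene, H3K36M over control, as points with 95% intervals, in red where the adjusted p was below 0.05, with blue ticks at the size that would have passed. Gli3 lies beyond its tick, Gli1 (2.31 against 3.30) and Hhip (0.90 in size against 1.37) fall short of theirs, and the ligands' ticks lie beyond 4 on either side.

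The genes differed widely in spread. The SE of each fold change implies a coefficient of variation (CV) between libraries of the same group, 1 value for both groups, which was 0.262 for Gli3, 0.365 for Ptch1, 0.538 for Hhip and 0.562 for Gas1, computed from the authors' deposited table. It was 0.743 for Gli2, 0.832 for Smo and 1.30 for Gli1. Among tested genes whose mean was 50 normalised counts or more, the median was 0.423. Gli3 stood at the 18.3 percentile of these genes and Gli1 at the 97.2 percentile. Gli3 had the lowest mean of the 7 well-read genes (57.3 normalised counts) and also the lowest implied CV. This CV leaves out counting error. A CV above 1, as for Gli1, stands for a modelled SD between libraries of a group that is larger than their mean. The SD within either group was not observed. Which libraries were high in Gli1 cannot be seen in group values.

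**Figure D3:**
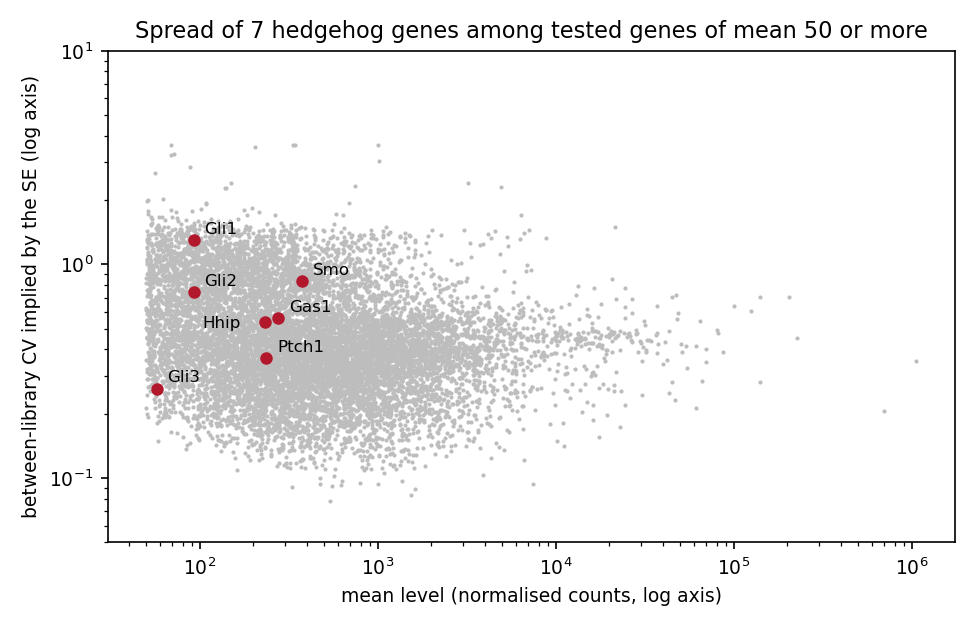
Coefficient of variation between libraries implied by the SE against mean level, both on log axes, for tested genes whose mean was 50 normalised counts or more (grey) and the 7 hedgehog genes among them (red). Gli3 (0.262) lies low and Gli1 (1.30) near the upper edge of the cloud.

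Levels of different genes were compared per kilobase of the longest protein-coding transcript in GENCODE M21. In H3K36M the order was Smo (110.3 normalised counts per kilobase), Gas1 (93.9), Gli1 (39.9), Ptch1 (30.4), Hhip (17.4), Gli2 (14.6), Gli3 (4.65), Ihh (0.552) and Shh (0.113). In control it was Gas1 (92.5), Smo (90.5), Hhip (32.4), Ptch1 (30.8), Gli2 (13.4), Gli3 (9.03), Gli1 (8.05), Ihh (0.313) and Shh (0.220). These levels were computed from the authors' deposited table. By these point values Gli1 was the first of the GLI genes in H3K36M and the last in control. The intervals of Gli1 and Gli2 overlapped in H3K36M (14.0 to 114 and 8.01 to 26.6) and in control (3.04 to 21.3 and 7.67 to 23.3). Those of Gli1 and Gli3 overlapped in control only. The intervals of neighbours in the order overlapped in H3K36M except between Gli2 and Gli3 and between Gli3 and Ihh. In control they overlapped except between Smo and Hhip, Ptch1 and Gli2, and Gli1 and Ihh. With the length of all exons joined in place of the transcript, Gas1 came before Smo and Hhip before Ptch1 in H3K36M, and the order in control was the same.

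Of 96 other genes of the pathway, 95 were tested in the authors' deposited table, and 2 fell and 0 rose (DESeq2 by the authors). That is 2.11%, against 3.43% of all genes tested, and the median log2 fold change was 0.19 over these 95 genes and 0.07 over all genes tested. An unadjusted p below 0.05 was found for 7 of them in that deposited table, or 7.37%, against 9.82% of all genes tested. Both genes that fell belong to the 31 transcripts often used as targets of the pathway. Bmp4, a ligand of the BMP family, had 47.2 normalised counts in H3K36M and 160 in control in the authors' deposited table, and fell by 1.76 on the log2 scale (SE 0.37, adjusted p = 0.000170, DESeq2 by the authors). Ccnd2, a D-type cyclin of the cell cycle, had 1474 normalised counts in H3K36M and 2204 in control in the authors' deposited table and fell by 0.58 on that scale (SE 0.17, adjusted p = 0.0182, DESeq2 by the authors). Both genes also answer to other signals. The median of the 31 was 0.24 on the log2 scale, and 23 of them lay above 0, as did 9879 of all 17449 genes tested.

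None of the 7 genes of ligand making and release passed, and none had an unadjusted p below 0.05. Those with the lowest p were Scube1, with 18.2 normalised counts in H3K36M and 6.99 in control in the authors' deposited table (log2 fold change 1.38, SE 1.43), and Scube3, with 1.08 and 0.213 (2.34, SE 2.61), both genes of secreted proteins. Scube2, known to free the lipid-bearing ligand from cells, and Disp1, which exports it, stood at −0.02 (SE 0.97) and 0.02 (SE 0.69) on the log2 scale there. Dhh, the remaining hedgehog ligand, had 9.19 normalised counts in H3K36M and 7.18 in control in the authors' deposited table. Scube2, Disp1 and Dhh were picked for their roles and not by p.

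Among the 8 tested co-receptors and other receptors none passed, and 2 had an unadjusted p below 0.05. Gpc3, a glypican that competes with Ptch1 for the ligand, had 552 normalised counts in H3K36M and 1068 in control in the authors' deposited table, with −0.95 as the log2 fold change (SE 0.39, adjusted p = 0.256, DESeq2 by the authors). Cdon, a co-receptor, had 266 in H3K36M and 351 in control in the authors' deposited table, with −0.40 as the log2 fold change (SE 0.17, adjusted p = 0.267, DESeq2 by the authors). In the authors' deposited table no gene of the 14 transducers and brakes had an unadjusted p below 0.05, and their log2 fold changes had a median of 0.35, with 12 of the 14 above 0, against 9879 of all 17449 genes tested. Their lowest p belonged to Evc2, a ciliary partner of Smo, at 0.49 (SE 0.69), and Arrb1, an arrestin, at 0.67 (SE 0.95) in that table. Sufu, which holds GLI proteins in the cytoplasm and was picked for its role, stood at 0.43 (SE 0.78) there.

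The enzymes that phosphorylate GLI proteins or mark them for breakdown had 0 calls of 15 in the authors' deposited table, and their median was −0.09 on the log2 scale. Prkar1a, a regulatory subunit of protein kinase A, was the 1 with an unadjusted p below 0.05, with 2296 normalised counts in H3K36M and 2818 in control there (log2 fold change −0.30, SE 0.11, adjusted p = 0.137, DESeq2 by the authors). In the authors' deposited table Spop, an adaptor for the breakdown of full-length Gli2 and Gli3, stood at −0.43 (SE 0.23). Of the 20 genes of the primary cilium none passed and none had an unadjusted p below 0.05 in that table, with a median of −0.02. The lowest p there were those of Ift80 (0.51, SE 0.38) and Ift20 (−0.39, SE 0.34), both of intraflagellar transport.

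**Figure D4:**
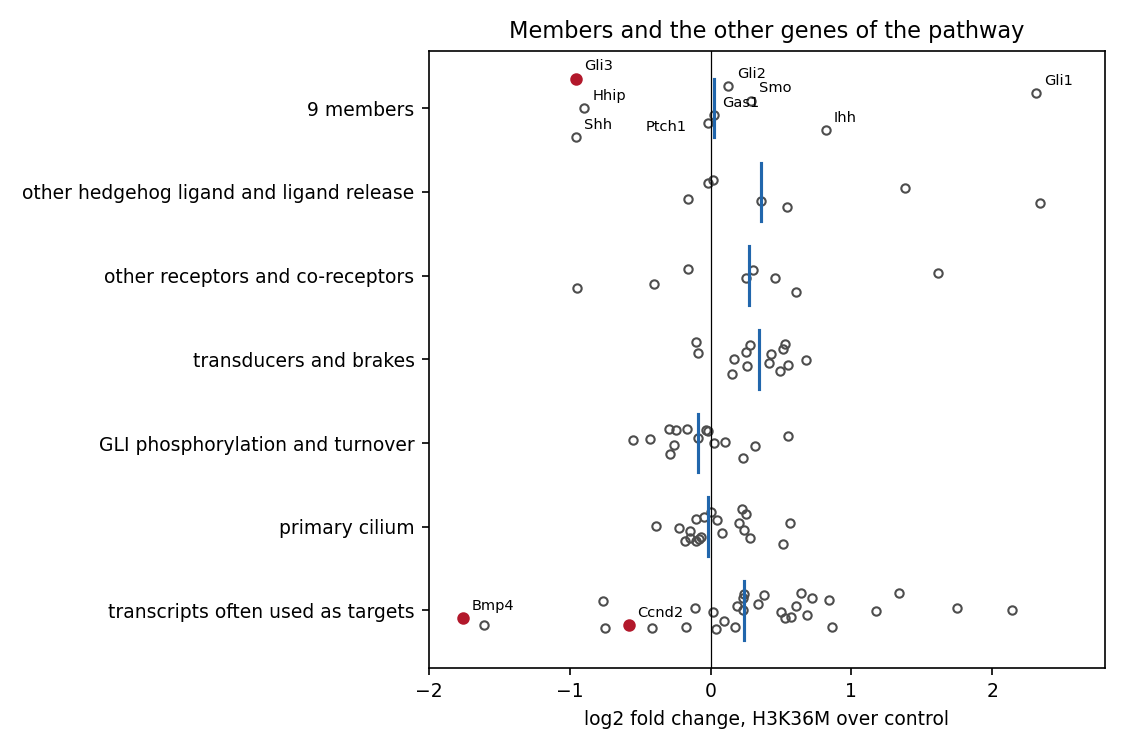
Log2 fold change, H3K36M over control, of the 9 genes and of the tested genes of 6 lists of the pathway, filled red where the adjusted p was below 0.05, with a blue bar at the median of each list. Gli3, Bmp4 and Ccnd2 passed, all 3 lower in H3K36M, and the list medians run from −0.09 to 0.36.

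Lists of cell type markers, not all of them of cells known to make or receive hedgehog ligands, gave the following values. In bulk tissue, fewer cells of a type and less RNA per cell cannot be told apart. Of 16 tested taste bud markers 2 rose and 0 fell in the authors' deposited table, namely Krt8 by 3.13 (SE 0.71) and Krt18 by 2.22 (SE 0.67), keratins that ducts and other simple epithelia also have. The taste bud list summed to 1953 normalised counts in H3K36M and 1338 in control there. Fibroblast markers had 0 calls of 10 and summed to 14077 in H3K36M and 15600 in control, with Dcn at −0.20 (SE 0.31) and Col3a1 at 0.56 (SE 1.10) in the authors' deposited table. Basal epithelial markers had 1 of 8 lower in the authors' deposited table, Krt14, by 0.87 (SE 0.26), and 5 of the 8 lay above 0. The list summed to 102303 in H3K36M and 129787 in control, of which Krt14 gave 37784 and 69205. The epithelial label of the samples was met by these basal keratins in both groups. Skeletal muscle markers, given below, were also read in both (29521 in H3K36M and 106933 in control, summed).

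Cartilage is a tissue known to express Ihh. Of 18 cartilage markers, 12 were set aside by the authors' tool as having an outlying sample, all 12 with the higher level in H3K36M. The same direction held for 151 of the 175 genes set aside in total. Acan had 155 normalised counts in H3K36M and 0.124 in control in the authors' deposited table, and Col10a1, Clec3a and Ucma had no read apparent in control. The list summed to 1079 in H3K36M and 589 in control, of which Sox6, expressed in many tissues, gave 524 and 557. Skeletal muscle markers summed to 29521 in H3K36M and 106933 in control in the authors' deposited table, with 0 of 16 past the threshold, Myh4 at −2.10 (SE 1.20) and Tnnt3 at −1.98 (SE 1.07). The part of these cell types in the levels of Gli1, Hhip or Gli3 was not tested.

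Sebaceous markers had 1 of 12 higher in the authors' deposited table, Krt79, by 1.39 (SE 0.24). The list summed to 5432 in H3K36M and 4603 in control, of which Krt79 gave 642 and 244 and Scd1 744 and 371. Of the 12 genes, 9 lay above 0 on the log2 scale, with Awat2, Far2 and Pparg below it. Nerve and glia markers had 0 calls of 8 (Mbp −0.08, SE 0.57), summing to 1055 in H3K36M and 1196 in control in the authors' deposited table. Endothelial markers had 0 of 7 (Pecam1 −0.50, SE 0.90, Vwf 1.09, SE 0.96), summing to 1208 in H3K36M and 1313 in control there. Of 5 tested neutrophil markers 2 rose in the authors' deposited table, S100a8 by 3.85 (SE 0.82) and S100a9 by 4.08 (SE 0.92), and the list summed to 1800 in H3K36M and 141 in control. No marker of these lists was without reads in the table.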

How the data were processed

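Strand-preserving poly(A) libraries were sequenced as single reads of 75 bases, per the labels' protocols. STAR, DESeq2 and the build GRCm38 (mm10) are named in the submitters' processing notes; for the annotation, the counting tool and the versions nothing is given in the sources used here. The mean level and both group levels are, per the file headers, normalised counts, a signal scale. The log2 fold change and its SE (log2 scale), the Wald statistic (a score) and the p-values, raw and adjusted, were deposited by the authors. In all 19909 genes with reads the sign of the fold change followed H3K36M minus control. With group values only, a count test could not be fitted, so the authors' adjusted p below 0.05 was used. It was given to 17449 genes, not to 7348 of low mean or 175 set aside as outliers. The p-values set the difference between the groups against the spread between samples of the same group. The labels do not tie these 13 samples to separate animals.

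The authors' deposited gene ontology tables name no genes and were not used. Relative depths of the libraries, found from genes read once in 1 library (at least 20 genes at each value), ran from 0.645 to 1.77 in H3K36M and from 0.728 to 1.23 in control. Reads of a group are its level times its summed relative depth, and the CV is the square root of the dispersion that gives the deposited SE at these depths, so both assume a single depth factor for each library. Read intervals cover counting error only. The calculations were tested on simulated data (Python with scipy 1.17.1 and statsmodels 0.14.6). All 9 genes are named, and from each pathway list the genes that passed or, where none passed, the 2 with the lowest p, and from each marker list those that passed or else the 2 with the highest mean. Genes outside this rule are marked as such, apart from the cartilage examples, which were chosen after their values were seen, and 1 gene the rule selects is not reported here. The members and lists were chosen with earlier results of these data known. Skp1 was found through a RefSeq synonym. Positions, lengths and overlaps are from GENCODE M21 and promoters from RefSeq, both on GRCm38. With 1 contrast of group levels, no likeness of pattern between genes can be measured. Alternatives were another threshold, filter, centring, adjustment and minimum change.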

Additional observations from a re-analysis of the deposited data

How the results depend on the processing

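Of the 9 genes, 1 was past the threshold (Gli3), and the count was also 1 with an adjusted p below 0.1, with Benjamini-Hochberg adjustment over every gene with a p, among genes whose mean was 50 normalised counts or more, and with the statistic centred and scaled. It was 0 with Bonferroni adjustment, where Gli3 (log2 fold change −0.96) had an adjusted p of 1, and 0 with a log2 fold change above 1 in size required. These 2 settings are stricter by construction. The adjusted p of Gli3 was 0.00394, 0.00401 and 0.000380 over every gene with a p, with the filter on the mean and with the statistic centred and scaled. Over the same settings that of Gli1 ran from 0.286 to 0.425 and that of Hhip from 0.209 to 0.52. Of the other pathway genes, 2 passed (Bmp4 and Ccnd2), against 1 with Bonferroni adjustment and 1 with a log2 fold change above 1 in size required, Bmp4 in both. With the statistic centred and scaled it was 3, Prkar1a being lower as well, and with the other alternatives 2. Of 43 results of alternatives for the fold changes of single genes, 42 kept the side of the threshold, the exception being Gli3 under Bonferroni adjustment. Part of these outcomes was fixed in advance, so the count is no measure of robustness. The log2 ratio of the group levels repeats the deposited fold change, and Bonferroni adjustment cannot bring in a gene that had not passed. Less the median of all genes tested, the fold change of Gas1 was below 0 (−0.05), within its SE. No paired analysis was possible because the labels give no replicate numbers and the files used here hold group values. For the same reason leaving out single libraries was not run, so how far Gli3 or Gli1 rests on 1 library is unknown. Depth limits Shh and Ihh, with under 10 reads a group.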
